A study of Homo sapiens with 6 samples.

Results

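Siglecs are cell surface receptors of the immunoglobulin superfamily that bind sialic acid, the sugar that caps many glycans on vertebrate cells. Most of them carry an immunoreceptor tyrosine-based inhibitory motif (ITIM) in the cytoplasmic tail, which recruits phosphatases and dampens activation. A few instead pair with the activating adaptor encoded by TYROBP. Most human Siglec genes of the CD33-related branch lie together on the long arm of chromosome 19, and many are expressed on monocytes, macrophages and granulocytes. CD33 itself is a surface marker and antibody target in acute myeloid leukaemia. The 10 Siglec genes described here were taken by name (SIGLEC1, CD33, SIGLEC5, SIGLEC6, SIGLEC7, SIGLEC9, SIGLEC10, SIGLEC11, SIGLEC12 and SIGLEC14) out of 58735 genes in the deposited table. The set was chosen by name around SIGLEC12, which was itself selected on its lower FPKM with BCL6B overexpression in these libraries, so its values are a description and carry no test.

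The libraries came from U937 cells, a human myeloid line with monocytic features that the labels call acute promyelocytic leukaemia cells from bone marrow. Of 6 libraries, 3 had the genotype NC (control) and 3 the genotype oeBCL6B, and all shared the same treatment and batch labels. The study's design text names lentiviral overexpression of BCL6B, a relative of the zinc finger repressor BCL6, and asks which genes it regulates. Nothing says that the replicates were separate cultures, so the spread between them may be technical.

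Reads in listed genes ranged from 16481014 to 18870186 per library. BCL6B had 0 reads in each control and 1215, 1229 and 1712 reads in the overexpression libraries, as labelled. Levels are in FPKM, fragments scaled to gene length and library depth, so different genes can be set side by side. Of 10 myeloid markers, 8 averaged at least 0.5 FPKM, although CD14, a monocyte marker, averaged 0.0800 FPKM in control libraries and 0.101 FPKM in overexpression libraries. The summed level of the 10 was 2138 to 2290 FPKM in controls and 1737 to 1921 FPKM with overexpression, without overlap. Most of it was MPO, the granule peroxidase, with means of 2025 and 1668 FPKM, and LYZ, or lysozyme, had means of 15.9 and 9.35 FPKM. The other myeloid markers did not move together. PTPRC was lower in every overexpression library, and SPI1 and CSF1R were higher in every one. In the limma test described below PTPRC passed (adjusted p = 0.0343), while SPI1 and CSF1R did not (0.123 and 0.208). Such a lack of overlap was common, at 40% of all tested genes. The groups overlapped for CD4, ITGAM, FCGR1A, CD14 and ELANE. The summed level of 5 T and NK cell markers was 3.44 to 4.64 FPKM and 5.12 to 6.75 FPKM, also without overlap. Most of it was CD3D, with means of 3.8 and 5.07 FPKM and overlapping groups (limma adjusted p = 0.134). NCAM1 had means of 0.306 and 0.905 FPKM and was below 0.5 FPKM in every control. The summed level of 5 eosinophil and mast cell markers was 10.7 to 12.8 FPKM in controls and 31.6 to 34.0 FPKM with overexpression, while CLC, a defining eosinophil gene, had no read in any library. The B cell marker PAX5 and the erythroid gene HBB were also at 0 throughout. The part of these marker levels in the Siglec results was not tested.

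SIGLEC12 (ENSG00000254521, GRCh38 chromosome 19, 51491357 to 51501789, minus strand) encodes a Siglec that in humans has lost the residue needed to bind sialic acid. Because BCL6B is related to BCL6, the 250 bases upstream of the RefSeq start of SIGLEC12 are shown (GRCh38.p14, minus strand, chr19:51501801-51502050), with those of its closest match by promoter sequence, SIGLEC9 (plus strand, chr19:51124656-51124905), and of CD33 (plus strand, chr19:51224830-51225079). Each reads 5′ to 3′ on the strand of its gene. Capitals mark the match to TTCCNNGAA, a core of the type that BCL6 binds, in SIGLEC12, and the 9 bases aligned to it in SIGLEC9.
SIGLEC12: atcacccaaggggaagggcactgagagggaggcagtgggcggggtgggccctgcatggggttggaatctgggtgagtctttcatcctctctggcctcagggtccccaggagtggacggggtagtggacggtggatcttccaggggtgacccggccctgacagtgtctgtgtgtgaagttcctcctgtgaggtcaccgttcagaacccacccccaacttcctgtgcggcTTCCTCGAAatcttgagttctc
SIGLEC9: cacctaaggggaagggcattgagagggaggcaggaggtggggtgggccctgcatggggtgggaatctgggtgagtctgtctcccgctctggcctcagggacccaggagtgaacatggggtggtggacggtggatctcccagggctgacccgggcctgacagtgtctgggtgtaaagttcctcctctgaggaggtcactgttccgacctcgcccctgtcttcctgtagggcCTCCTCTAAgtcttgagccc
CD33: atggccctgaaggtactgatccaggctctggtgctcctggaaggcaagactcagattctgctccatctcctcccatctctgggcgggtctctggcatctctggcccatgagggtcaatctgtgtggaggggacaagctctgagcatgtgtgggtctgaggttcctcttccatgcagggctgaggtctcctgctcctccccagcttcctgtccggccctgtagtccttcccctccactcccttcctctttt

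The SIGLEC12 match begins 22 bases upstream of the start site. Of the 9 members with a promoter in the RefSeq table, SIGLEC12 was the 1 with a match on either strand, and its second listed start site also had one. Over all 35116 windows of this length, 3.86% held the core. The SIGLEC12 and SIGLEC9 windows were identical at 83.1% of aligned positions, and SIGLEC9 had 7 of the 9 bases of the match. The SIGLEC5 and SIGLEC14 windows were identical at 84.7%, and no other pair exceeded 60.3%. The CD33 window was identical to that of SIGLEC12 at 54.3%. The letter strings GAGGAAGT and TTGCNNAA, searched on both strands and of the types bound by the myeloid factors encoded by SPI1 and the CEBP genes, matched 0 of the 9 windows, against 2.17% and 9.05% of all windows. With 9 windows, neither these counts of 0 nor the 1 member with TTCCNNGAA can be set apart from the shares of all windows. Only exact strings were counted. A match is a string of letters, not a shown binding site.

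In the control libraries SIGLEC12 was the second most abundant Siglec of the 10, at 6.48, 5.71 and 5.63 FPKM (262, 229 and 215 reads). With BCL6B overexpression it was at 1.81, 1.73 and 1.93 FPKM (75, 68 and 85 reads). Every overexpression library lay far below every control, and the spread within each group was small beside the gap. The group means were 5.94 ± 0.466 and 1.82 ± 0.0994 FPKM (SD, n = 3 each), so the overexpression mean was 30.7% of the control mean and the change on the log2(FPKM + 1) scale was -1.30. Across 15 alternative settings, some of them on another log2 scale, the log2 change ranged from -1.68 to -1.24. Among 10455 protein-coding genes with a control mean of at least 0.5 FPKM, 5 had a ratio as low as this or lower, SIGLEC12 included. SIGLEC12 was chosen for its fall in these libraries, so the gap and this rank are a description with no test. No other gene overlapped SIGLEC12 in the annotation, and no other gene's transcript matched it at 90% identity over 200 bases. In bulk RNA, fewer cells that express a gene and less RNA per cell cannot be told apart.

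**Figure D1:**
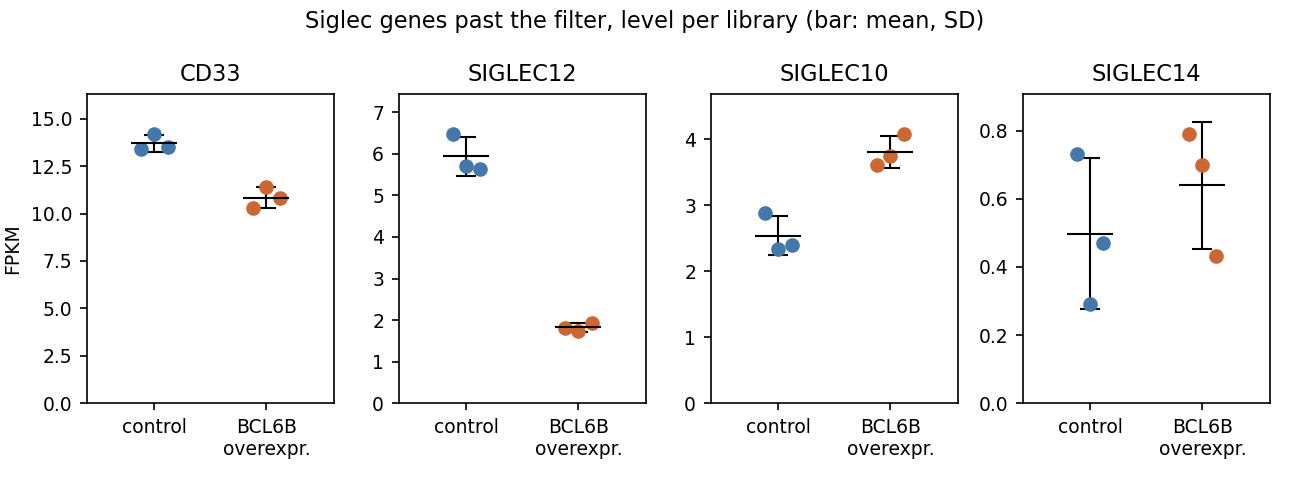
Level in FPKM (linear axis from 0) of CD33, SIGLEC12, SIGLEC10 and SIGLEC14 in each of the 3 control and 3 BCL6B overexpression libraries; points are libraries, the long bar is the mean and the whiskers are the SD. Overexpression libraries sit below the controls for CD33 and SIGLEC12, above them for SIGLEC10, and among them for SIGLEC14.

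Genes that reached 0.5 FPKM in 3 or more of the 6 libraries were compared by limma on log2(FPKM + 1), adjusted by Benjamini-Hochberg over all 14662 tested genes. Of the 10 members, 4 passed this filter. Besides SIGLEC12, these were CD33, SIGLEC10 and SIGLEC14, of which 1 fell, 1 rose and 1 did not pass the test. Over all tested genes 18.3% were called at an adjusted p under 0.05, of which 8.18% of tested genes rose and 10.1% fell. With 3 members tested, their count cannot be set apart from that background.

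CD33 (ENSG00000105383, chromosome 19, 51225064 to 51243860, plus strand) encodes an ITIM-bearing receptor of myeloid cells. It was the most abundant member in every library, at 13.4, 14.2 and 13.5 FPKM in controls and 10.3, 11.4 and 10.8 FPKM with overexpression, from 1157 to 1540 reads per library. The groups did not overlap, and the gap was smaller than that of SIGLEC12. CD33 fell from 13.7 ± 0.421 to 10.9 ± 0.572 FPKM (SD, n = 3), or to 79.4% of control (log2 change -0.31, SE 0.0543, limma adjusted p = 0.0121, 0.00186 to 0.0460 over 15 alternatives).

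SIGLEC10 (ENSG00000142512, chromosome 19, 51410021 to 51417803, minus strand) encodes an ITIM-bearing receptor that binds the sialylated glycoprotein CD24. It moved the other way, from 2.88, 2.34 and 2.39 FPKM in controls to 3.61, 3.74 and 4.08 FPKM with overexpression. All overexpression libraries, with 245 to 300 reads, lay above the controls, with 152 to 194. SIGLEC10 rose 1.5-fold, with means of 2.53 ± 0.299 and 3.81 ± 0.245 FPKM (SD, n = 3 each) and a log2 change of 0.45 (SE 0.0834, limma adjusted p = 0.0146). Its call was lost without control replicate 3 (adjusted p = 0.0554), and its adjusted p over 15 alternatives began at 0.00145. The antisense transcripts AC008750.1 and AC008750.2 share 6.44% and 16.2% of the SIGLEC10 exon bases, and the use of strand in counting is not given, so reads from the shared bases cannot be told apart.

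SIGLEC14 (ENSG00000254415, chromosome 19, 51642553 to 51646801, minus strand) encodes an activating receptor that pairs with the TYROBP adaptor. It stood at 0.732, 0.290 and 0.471 FPKM in controls and 0.791, 0.699 and 0.431 FPKM with overexpression, from 11 to 31 reads. The groups overlapped, and the gene was just inside the filter (log2 change 0.14, SE 0.152, limma adjusted p = 0.578). SIGLEC5, its inhibitory partner on neutrophils and monocytes, did not reach 0.5 FPKM in any library, at 0.0231, 0.209 and 0.220 FPKM in controls and 0.113, 0.261 and 0.338 FPKM with overexpression. Its groups overlapped (two-sided exact permutation p = 0.4, where 0.1 is the smallest that 3 against 3 libraries allow). SIGLEC5 and SIGLEC14 share a stretch of 765 bases at 99.5% identity, and the readthrough gene AC018755.2, with no read in any library, covers 74.5% of the SIGLEC5 exon bases. Reads of SIGLEC5 and SIGLEC14 may therefore be split or dropped by the counting, and the levels of both are uncertain.

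The other 5 members were near the limit of detection. SIGLEC7, an inhibitory receptor of natural killer cells and monocytes, had 3 to 9 reads per library, with means of 0.156 ± 0.0888 FPKM in control and 0.216 ± 0.0195 FPKM in overexpression libraries (SD, n = 3, exact permutation p = 0.4). SIGLEC6, known from placental trophoblast and mast cells, had 2 to 7 reads per library, at 0.108 ± 0.0193 and 0.101 ± 0.0502 FPKM (exact permutation p = 0.9). SIGLEC1, the macrophage receptor sialoadhesin, which lacks an ITIM, had 2 to 6 reads over 7886 bases of exon, at 0.0258 ± 0.00782 and 0.0274 ± 0.0150 FPKM (exact permutation p = 1). These genes had reads in every library, and their groups overlapped. Antisense transcripts share 22.7% of the SIGLEC7 and 16.5% of the SIGLEC6 exon bases, so part of these few reads may not belong to them.

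SIGLEC9, an inhibitory receptor of neutrophils and monocytes, had 0, 3 and 2 reads in controls and 2, 0 and 0 reads with overexpression (exact permutation p = 0.4). SIGLEC11, known from microglia and tissue macrophages, had 1 read in control replicate 3 and 0 in the other 5 libraries (exact permutation p = 1). A count of 0 allows 3 counts, which is up to 0.0681 FPKM for SIGLEC9 and up to 0.0545 FPKM for SIGLEC11 in a library, so a difference in either was not detectable at this depth. SIGLEC11 also shares 738 bases at 98.8% identity with SIGLEC16. None of the 6 members below the filter had groups that did not overlap. Over the tested genes 40% had groups that did not overlap, and 3 of the 4 members past the filter were among them, SIGLEC12 by choice.

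**Figure D2:**
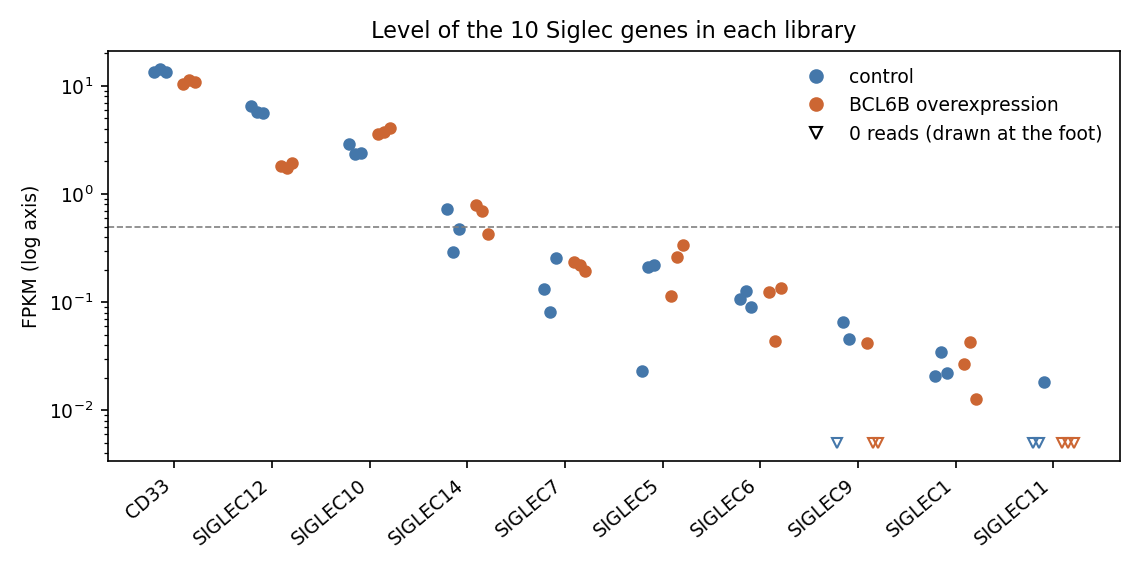
FPKM on a log axis of the 10 Siglec genes in each library, ordered by control mean; filled points are libraries, open triangles at the foot are libraries with 0 reads, and the dashed line is the 0.5 FPKM used in the filter. CD33, SIGLEC12 and SIGLEC10 lie above 1 FPKM in every library and the other 7 below it.

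In controls the order of levels was CD33, SIGLEC12, SIGLEC10, SIGLEC14, SIGLEC7, SIGLEC5, SIGLEC6, SIGLEC9, SIGLEC1 and SIGLEC11. Neighbours whose control libraries overlapped were SIGLEC7 with SIGLEC5, SIGLEC5 with SIGLEC6, and SIGLEC9 with SIGLEC1. With overexpression SIGLEC10 stood above SIGLEC12, with no overlap between them. The ratio of SIGLEC12 to SIGLEC10 was 2.25, 2.45 and 2.36 in controls and 0.502, 0.462 and 0.472 with overexpression. SIGLEC12 was thus the higher of the pair in each control and the lower in each overexpression library.

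The summed level of the 10 members was 23.1 ± 0.592 FPKM in controls and 17.7 ± 0.603 FPKM with overexpression (SD, n = 3). Of the difference of -5.40 FPKM, SIGLEC12 accounted for -4.12 and CD33 for -2.81, against 1.28 for SIGLEC10. SIGLEC12 made up 24.8% to 27.3% of the summed level in control libraries and 9.52% to 10.7% with overexpression. SIGLEC10 made up 10.2% to 12.1% and 20.6% to 22.7%. The share of CD33 was 56.4% to 61.5% in controls and 60.3% to 62.9% with overexpression, so its groups overlapped. These shares are a description, since SIGLEC12 was chosen for its fall.

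Siglec genes outside the 10 were low. SIGLEC8, the Siglec of eosinophils and mast cells, averaged 0.144 ± 0.130 FPKM in control and 0.192 ± 0.0864 FPKM in overexpression libraries, with overlapping groups and 1 to 16 reads. In the same libraries EPX, which encodes eosinophil peroxidase, was at 6.75 and 25.3 FPKM. CD22, the B cell Siglec, had 0 to 5 reads per library, SIGLEC15, known from osteoclasts, had 0 or 1, and MAG, the myelin-associated glycoprotein, had none. SIGLEC16, the activating partner of SIGLEC11 and listed as a pseudogene in the annotation, had 0 to 6 reads, and SIGLECL1 had 2 to 7. None of these 6 genes passed the filter.

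On chromosome 19, 8 of the members lay within 522 kb, between 51124908 and 51646801 (GRCh38). The table listed 44 other genes inside this span, of which 15 had no read in any library and 9 were tested, with 2 rising, 1 falling and 6 not passing. With 9 genes tested, that count cannot be set apart from the 18.3% of all tested genes that were called. The neighbour with the highest level was NKG7, a granule membrane gene of cytotoxic lymphocytes, with means of 61.2 ± 1.01 and 70.5 ± 0.956 FPKM (SD, n = 3 each). NKG7 rose by 0.20 on the log2 scale (limma adjusted p = 0.0158), a call lost without control replicate 1 (0.0735), control replicate 3 (0.0616) or overexpression replicate 2 (0.0644). NKG7 lies between CD33, which fell, and SIGLEC10, which rose, and SIGLEC12 lies beyond SIGLEC10.

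The antisense transcript AC008750.1 inside SIGLEC10 fell while SIGLEC10 rose. It had 7, 10 and 9 reads in controls and 5, 0 and 3 with overexpression (log2 change -0.65, limma adjusted p = 0.0475). That call rested on few reads and was lost in 10 of 14 alternatives, with adjusted p up to 0.129 without control replicate 3, and at 0.121 without control replicate 2, 0.0811 without control replicate 1 and 0.0970 and 0.0960 without overexpression replicates 2 and 3. AC018755.4, a transcript within an intron of SIGLEC5, rose from 1, 3 and 3 reads to 9, 6 and 10 (log2 change 0.61, limma adjusted p = 0.0250). AC018755.4 was below the filter level in every control, so it entered the test only through the overexpression libraries, where it was higher. Without the filter on low values its limma adjusted p was 0.0618. It lost its call in 8 of 14 alternatives, with adjusted p of 0.0682 and 0.0734 without overexpression replicates 1 and 3 and of 0.0715, 0.0508 and 0.0546 without control replicates 1, 2 and 3.

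The Siglec pseudogenes SIGLEC22P and SIGLEC17P, near CD33, did not pass the test. SIGLEC22P averaged 2.25 ± 0.479 FPKM in control and 2.50 ± 0.221 FPKM in overexpression libraries, and SIGLEC17P at 0.628 ± 0.303 and 0.870 ± 0.102 FPKM, with overlapping groups in both. The other tested neighbours, VSIG10L, ETFB, CLDND2 and ZNF175, had limma adjusted p-values of 0.253, 0.647, 0.205 and 0.981. ETFB and ZNF175 had overlapping groups. VSIG10L was higher and CLDND2 lower in all 3 overexpression libraries without passing, while 40% of all tested genes had groups that did not overlap.

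**Figure D3:**
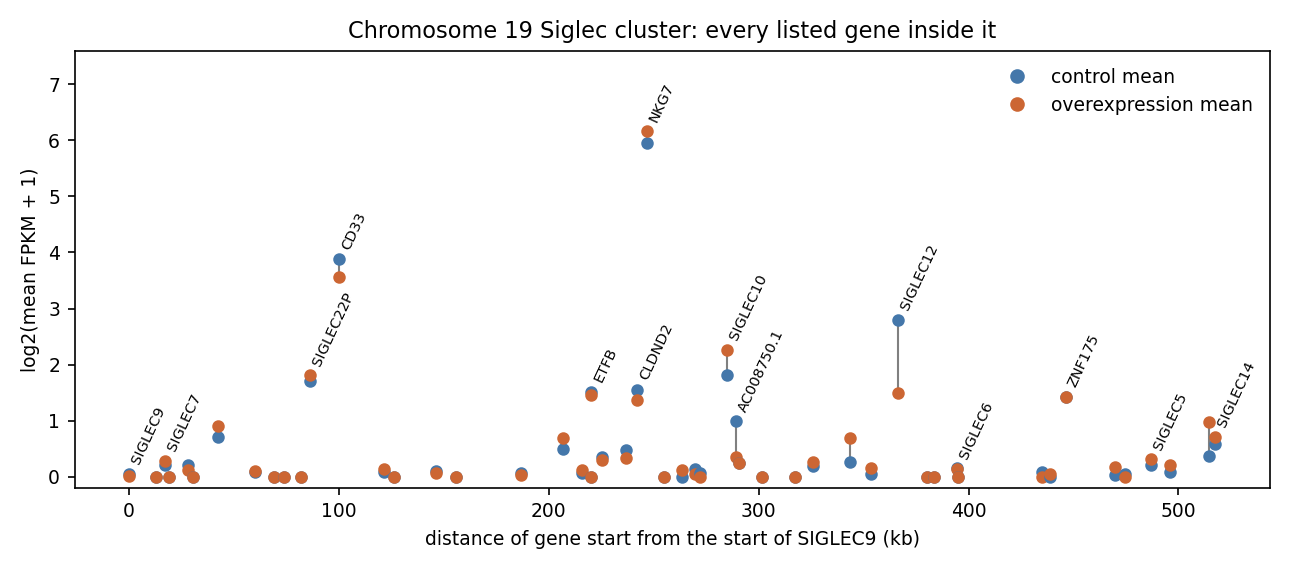
Mean level, as log2(FPKM + 1), of every gene listed inside the chromosome 19 cluster against the distance of its start from that of SIGLEC9 in kb; blue is the control mean, orange the overexpression mean, and a grey line joins the pair. The longest line is that of SIGLEC12, from 5.94 to 1.82 FPKM, a log2 change of -1.30; among the other called genes AC008750.1 is at -0.65, AC018755.4 at 0.61 and SIGLEC10 at 0.45.

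To place SIGLEC12 among other genes, each protein-coding gene was expressed as a percentage of its own control mean in each library and compared with SIGLEC12 by the root mean square difference over the 6 libraries. Of 10454 genes, the nearest were MS4A2, DHRS9, COL4A2, MS4A7 and MNDA, at differences of 0.0534, 0.0817, 0.0889, 0.0919 and 0.0932 of the control mean. MS4A2, the beta chain of the high-affinity IgE receptor of mast cells and basophils, had control levels of 1.21, 1.20 and 1.14 FPKM and overexpression levels of 0.274, 0.289 and 0.325 FPKM. DHRS9, a dehydrogenase of the retinol pathway, was at 5.22, 5.67 and 5.93 FPKM and 1.80, 1.61 and 1.78 FPKM. MNDA, a nuclear antigen of myeloid cells, had the highest level of the 5, at 61.6, 66.0 and 64.3 FPKM in controls and 26.6, 25.3 and 25.0 FPKM with overexpression. MS4A7, a membrane protein of monocytes and macrophages, and COL4A2, a basement membrane collagen chain, were each at 41.6% of control. None of the 5 lies on chromosome 19, and since they were picked for likeness their profiles carry no test.

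**Figure D4:**
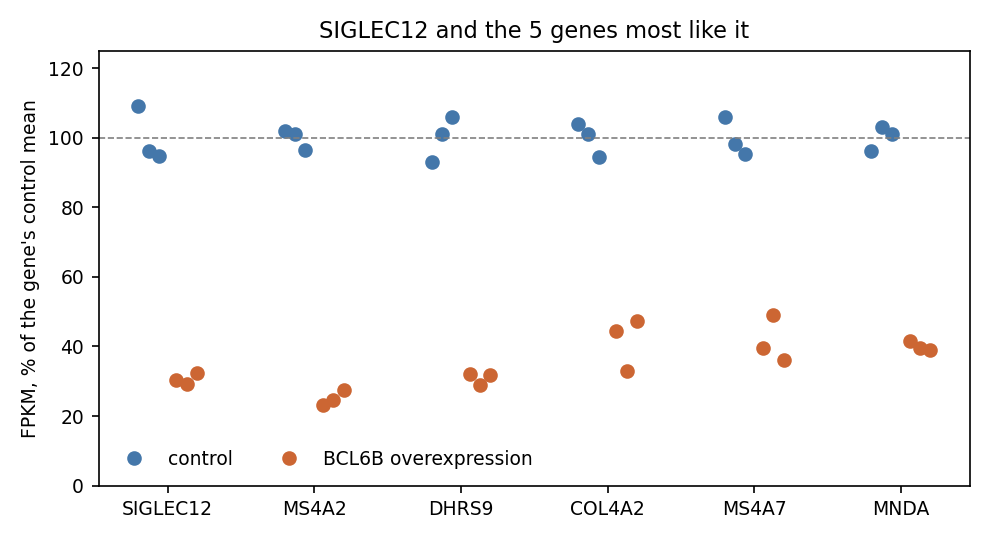
FPKM as a percentage of each gene's own control mean in the 3 control and 3 overexpression libraries, for SIGLEC12 and the 5 genes nearest to it in profile; each point is a library and the dashed line is 100%. Overexpression libraries lie at 29.1% to 32.4% for SIGLEC12 and between 23.2% and 49.1% for the others.

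Siglecs act through a wider set of genes, which were described by lists of signalling partners, sialic acid enzymes, ligand carriers and related receptors. In each list the count is to be read beside the 18.3% of all tested genes that were called and their median log2 change of -0.0182. Of 11 tested signalling genes 3 rose, 1 fell and 7 did not pass (median log2 change 0.074). The phosphatase genes that ITIMs recruit, PTPN6 and PTPN11, were at 25.8 and 36.1 FPKM in controls and 24.1 and 37.4 FPKM with overexpression, and neither passed (limma adjusted p = 0.281 and 0.613). INPP5D, a lipid phosphatase that ITIMs also recruit, was lower in all 3 overexpression libraries, at 43.1, 45.2 and 51.0 FPKM against 53.4, 53.1 and 55.1 FPKM in controls, without passing (limma adjusted p = 0.0680). TYROBP, the adaptor of SIGLEC14, was at 8.12 and 10.4 FPKM with overlapping groups (limma adjusted p = 0.139).

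FCER1G, the common gamma chain adaptor of activating Fc receptors, rose from 16.8 ± 3.48 to 26.0 ± 3.59 FPKM (SD, n = 3, limma adjusted p = 0.0359). The Src family kinase FGR rose 3.58-fold from 0.283 to 1.01 FPKM (limma adjusted p = 0.0180). FGR was below the filter level in every control, so it entered the test only through the overexpression libraries, where it was higher. Without the filter on low values its limma adjusted p was 0.0471. LYN, the kinase that phosphorylates ITIMs, rose 1.19-fold (limma adjusted p = 0.0392). SYK, the kinase of activating receptors, fell to 0.810 of control (limma adjusted p = 0.0146). All 4 calls depended on single libraries. FCER1G lost its call without control replicate 1 or 3 or overexpression replicate 1 or 2 (adjusted p of 0.106, 0.107, 0.0920 and 0.101). FGR lost it without control replicate 1, 2 or 3 or overexpression replicate 2 (0.0587, 0.0522, 0.0535 and 0.0592). LYN lost it without any 1 of the 6 libraries, at adjusted p from 0.0536 without overexpression replicate 3 to 0.119 without control replicate 3, and SYK without control replicate 1 or overexpression replicate 2 (0.0564 and 0.0559). LYN also lost its call when libraries were rescaled to the same summed FPKM (limma adjusted p = 0.0965). Without the filter on low values LYN and FCER1G lost theirs (limma adjusted p = 0.0733 and 0.106).

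None of the 5 genes of sialic acid synthesis, GNE, NANS, NANP, CMAS and SLC35A1, passed the limma test on log2(FPKM + 1), with the smallest adjusted p, 0.108, for CMAS, which activates sialic acid for transfer. Of 20 sialyltransferase genes 8 were tested, with 1 rising and 2 falling (median log2 change -0.086). ST3GAL2, which caps glycans of mucin type and glycolipids, rose from 5.38, 5.41 and 4.72 FPKM in controls to 7.52, 7.95 and 8.36 FPKM, or 1.54-fold (limma adjusted p = 0.00460), in every alternative. Part of its transcript, 382 bases, is also in AC012184.1. ST8SIA4, which makes polysialic acid, fell to 0.721 of control (limma adjusted p = 0.0133). ST3GAL6 fell to 0.835 of control (limma adjusted p = 0.0297). ST8SIA4 lost its call without control replicate 1 or 3 or overexpression replicate 2 (0.0532, 0.0528 and 0.0501). ST3GAL6 lost it without control replicates 1, 2 or 3 or overexpression replicates 2 or 3 (0.0961, 0.0841, 0.0636, 0.0998 and 0.0715). The ST3GAL6 call was also lost without the filter on low values (limma adjusted p = 0.0559) and after quantile normalization (0.0578).

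Of 5 tested genes that remove or modify sialic acid 2 rose and 2 fell (median log2 change -0.12). NEU3, the plasma membrane sialidase that acts on gangliosides, fell from 4.31, 5.14 and 4.87 FPKM to 2.83, 2.82 and 3.02 FPKM, or to 0.606 of control (limma adjusted p = 0.00486), in every alternative. NEU1, the lysosomal sialidase, rose 1.35-fold from 7.12 ± 0.675 to 9.64 ± 0.549 FPKM (SD, n = 3, limma adjusted p = 0.0164, 0.0549 without control replicate 3). CTSA, which encodes the protein that protects NEU1 in the lysosome, fell to 0.878 of control (limma adjusted p = 0.0398). NPL, which cleaves free sialic acid, rose 1.70-fold from 1.10 FPKM (limma adjusted p = 0.0205). NPL lost its call without control replicates 1 or 3 or overexpression replicates 1 or 3 (0.0628, 0.0698, 0.0556 and 0.0576), and without the filter on low values (0.0716). CTSA lost it in 11 of 15 alternatives, among them without each of the 6 libraries, at adjusted p from 0.0644 without overexpression replicate 3 to 0.132 without control replicate 1 or 3. CTSA also shares 1038 bases with NEURL2.

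Of 7 tested genes for glycoproteins that Siglecs bind 2 rose and 1 fell (median log2 change 0.14). SPN, or CD43, a sialylated mucin of leukocytes, was at 50.0, 49.9 and 50.9 FPKM in controls and rose to 57.5, 64.9 and 60.7 FPKM (limma adjusted p = 0.0164, 0.0630 and 0.0574 without control replicates 1 and 3). AOC3, an adhesion amine oxidase, rose from 0.598 to 1.09 FPKM (limma adjusted p = 0.0286). AOC3 lost its call in 8 of 14 alternatives, among them without any 1 library, at adjusted p from 0.0645 without control replicate 2 to 0.0853 without control replicate 3, and shares 618 bases with AOC4P. PTPRC, or CD45, fell to 0.823 of control (limma adjusted p = 0.0343). PTPRC lost its call without control replicates 1 or 3 or overexpression replicates 2 or 3 (0.105, 0.114, 0.106 and 0.0844). The PTPRC call was also lost without the filter on low values (limma adjusted p = 0.0742) and after quantile normalization (0.0623). CD24, the ligand of SIGLEC10, did not pass the filter. CD52, another glycoprotein that SIGLEC10 binds, was at 1.84 and 3.29 FPKM without passing (limma adjusted p = 0.0670).

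Other ITIM receptors of myeloid cells had 3 rises and 0 falls among 8 tested genes (median log2 change 0.23). CD300A, which binds lipids exposed on dying cells, rose 2.09-fold from 8.33, 10.3 and 8.23 FPKM to 17.2, 19.1 and 19.9 FPKM (log2 change 0.99, SE 0.0930, limma adjusted p = 0.00177). PILRA, which binds sialylated proteins, rose 1.57-fold from 8.73, 8.13 and 8.85 FPKM to 12.9, 12.5 and 15.0 FPKM (limma adjusted p = 0.00456). SIRPA, the receptor for CD47, rose 1.42-fold from 13.5, 13.3 and 13.1 FPKM to 18.0, 18.2 and 20.5 FPKM (limma adjusted p = 0.00444). These 3 calls held in all 15 alternatives each, and the groups did not overlap in any of them.

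Among 5 tested activating receptors 0 rose and 2 fell (median log2 change -0.12), and both are partners of ITIM receptors that rose. PILRB, the activating partner of PILRA, fell to 0.719 of control, from 10.6, 11.3 and 9.97 FPKM to 7.20, 7.55 and 8.16 FPKM (limma adjusted p = 0.00825). PILRA was therefore below PILRB in every control library and above it in every overexpression library. SIRPB1, the activating partner of SIRPA, fell to 0.746 of control (limma adjusted p = 0.0221). Its call was lost without control replicates 1 or 3 or overexpression replicates 1, 2 or 3 (0.0750, 0.0796, 0.0566, 0.0518 and 0.0593), and without the filter on low values (0.0579). PILRB shares 932 bases with a readthrough transcript, so its own level is uncertain. SIRPB1 shares 590 bases at 98% identity or more with SIRPA, so the split of reads between these 2 genes is uncertain.

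Of 9 tested myeloid transcription factor genes 0 rose and 3 fell, while the median log2 change, 0.056, was above 0. CEBPD, GFI1 and MYB fell to 0.666, 0.727 and 0.721 of control, from 61.1 ± 1.31, 46.7 ± 2.19 and 102 ± 10.3 FPKM (SD, n = 3, limma adjusted p = 0.00390, 0.00424 and 0.0116), in every alternative. SPI1, which encodes a master regulator of myeloid genes, was at 85.8 and 96.9 FPKM and did not pass (limma adjusted p = 0.123).

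**Figure D5:**
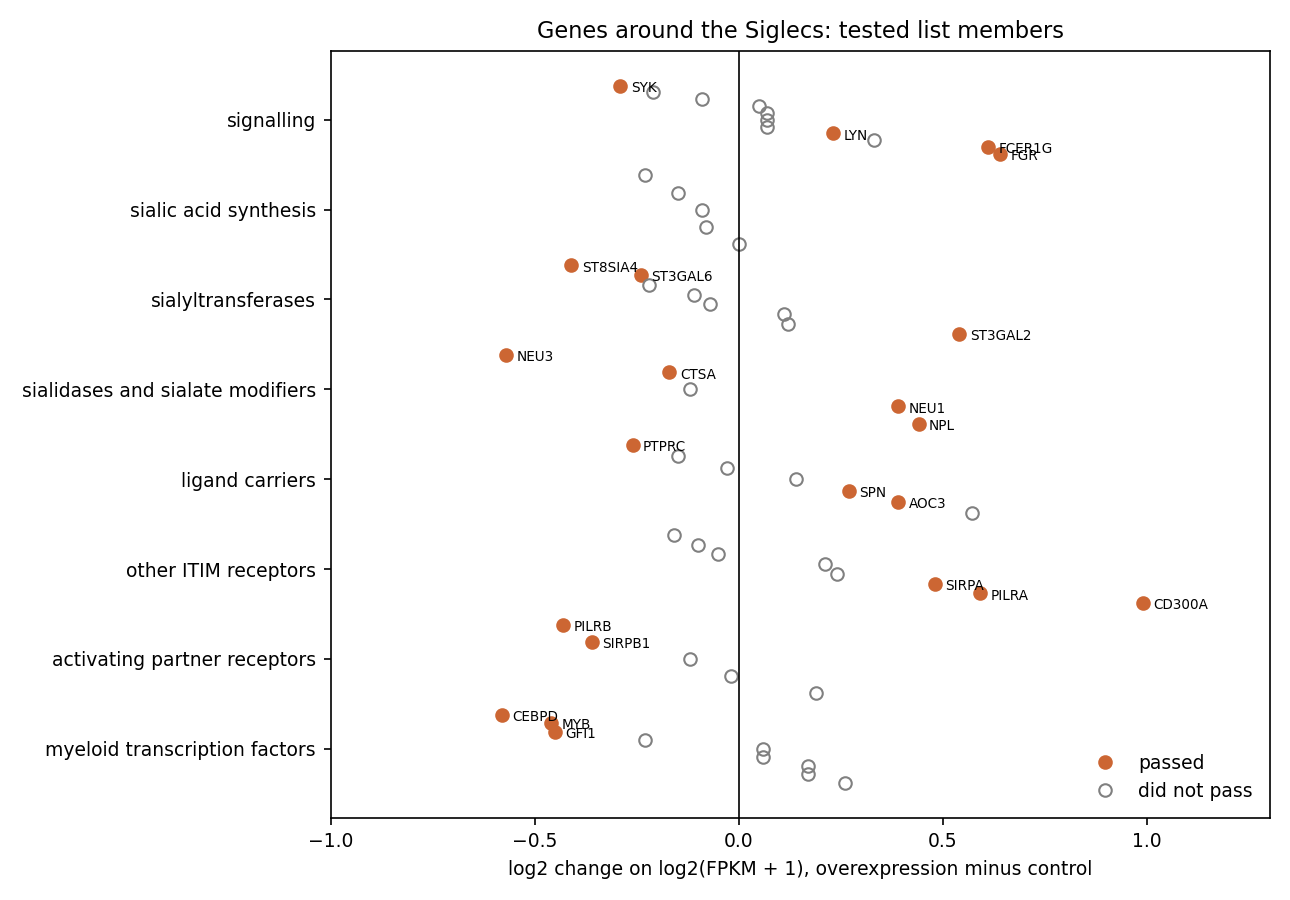
Log2 change on the log2(FPKM + 1) scale, overexpression minus control, of every tested gene in the 8 lists; filled and labelled points passed at an adjusted p under 0.05 and open points did not. The ITIM receptors that passed lie to the right of 0, at 0.48 to 0.99, and the activating receptors that passed to the left, at -0.43 and -0.36.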

How the data were processed

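RNA was selected with oligo(dT) beads and made into dUTP-marked libraries, per the labels' protocols. The authors deposited FPKM per gene and library, and a gene length column, as the file headers show. The submitters' processing notes list cutadapt 1.9, an adapter trimmer, and build GRCh38. For the aligner, the counter and its strand setting, the entry is not given in the sources used here. In each library FPKM times length fell on multiples of the value of 1 read for 100% of 139702 values above 0 (tolerance 0.01), which gave the reads per gene. Counting limits cover counting error only.

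Genes with at least 0.5 FPKM in at least 3 of 6 libraries were compared with limma 3.58.1 (R 4.3.3) on log2(FPKM + 1) with a mean-variance trend, two-sided, adjusted over all tested genes at 0.05. This scale understates changes of low genes. Members below the filter had an exact permutation test. The procedure was tested on simulated data. Members and lists were chosen with earlier results of these data known. The text names all 10 members, the other Siglec genes, up to 4 called genes per list by smallest adjusted p, neighbours that were called or averaged at least 0.5 FPKM, and the 5 genes nearest to SIGLEC12; other genes named, such as PTPN6, INPP5D, TYROBP, CD52 and SPI1, were chosen after their values were seen. Coordinates are those of the table, which for the members equal GENCODE 29; near-identical copies (98% identity, 200 bases) were sought among its transcripts with BLAST+ 2.17.0. Promoters are RefSeq's (GRCh38.p14).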

Additional observations from a re-analysis of the deposited data

How the results depend on the processing

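The count of changed genes, 2687, was 1588 without the filter on low values, where many more genes are tested, and 1222 to 2272 when 1 library was left out: 1276, 1738 and 1222 without control replicates 1, 2 and 3, and 1333 without overexpression replicate 2. Of the tested Siglec genes other than SIGLEC12, 2 were called in every alternative except that without control replicate 3, which left 1 (leave-one-out range 1 to 2). With the replicate number as a block the counts were 2328 genes and 2 Siglec genes; same-numbered libraries deviated together only weakly (correlations of 0.051, 0.11 and -0.002), so the numbers are not taken as pairs. Over 34 tested genes (members other than SIGLEC12, called list genes and neighbours), 413 of 503 alternative results kept their side of the threshold and 90 lost the call. No called gene changed sign; ZNF175, which was not called, lay on both sides of 0, from -0.07 without overexpression replicate 1 to 0.04 without overexpression replicate 3. SIGLEC12 moved by more than the spread between replicates in 4 of 15 alternatives and stayed lower in all 15. Those 4 used another pseudocount, another unit or recovered reads, so their log2 scale was not that of log2(FPKM + 1). A planned quasi-likelihood count test was not run, since the deposited unit is FPKM; limma voom on the recovered reads took its place. Depth limits the 6 members below the filter, of which none exceeded 16 reads in a library.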

Other observations

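The core TTCCNNGAA found upstream of SIGLEC12 was counted, as a description with no test, in the 250-base RefSeq windows of protein-coding genes in the comparison. A gene was counted if any of its windows held the core, so these shares are not comparable with the share of windows given above. The core was in 6.38% of 1035 genes that fell, in 4.82% of 705 that rose and in 4.75% of 6775 that did not pass. SIGLEC12, which prompted the count, was not left out. Of 10628 tested protein-coding genes, 8515 had a window and were counted. Most genes that fell had no such string in their windows, and neither CD33 nor SIGLEC10 had it. The part of the core in the falls was not tested.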
